A study of Mus musculus with 16 samples.

Results

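The genes described here drive DNA replication and mitosis in dividing cells. The set holds 49 genes of 20828 genes that could be named on the array, and it was chosen by name and function, with no threshold on measured values. Of the 49, 22 act in the G1 to S transition and DNA replication (the replication members) and 27 act in mitosis (the mitosis members). Each gene is represented by 1 probe, the one with the highest mean level over the 16 arrays. All 49 had a probe, and 46 to 48 of them entered each test, since a test asked for a signal well above background on each array of 1 or both groups compared.

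The 16 arrays come from skin wounds on the back of female mice in 8 groups of 2 arrays each. The WT group is C57BL/6J mice, and the 3 other groups are C57BLKS/J mice carrying the db/db mutation of the leptin receptor gene, which are obese and diabetic. Of these, 1 db/db group was left untreated, 1 received estrogen on the wound (estradiol benzoate in sesame oil) and 1 received the vehicle, sesame oil alone. The WT wounds had no treatment. Each group was sampled at labelled day 7 and labelled day 14 after wounding. The WT mice are of another strain than the db/db mice, so genotype and strain cannot be told apart. RNA came from whole wounds with some skin around them, so that all cell types were measured together.

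A cell that is to divide first passes from G1 into S phase, when E-type cyclins and E2F transcription factors switch on the replication genes. Origins are licensed by Cdc6, Cdt1 and the MCM helicase, fired through Cdc45, Mcm10 and the GINS subunits, and copied with the PCNA sliding clamp, while ribonucleotide reductase, thymidylate synthase and thymidine kinase supply the nucleotides. Later, cyclin B with Cdk1, the Foxm1 and Mybl2 transcription factors, the Plk1 and Aurora kinases, the kinesin motors and the anaphase promoting complex carry the cell through mitosis. In a healing wound, keratinocytes at the wound edge, fibroblasts, endothelial cells and some immune cells divide, and hair follicle matrix cells divide when follicles grow.

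The promoters of the members were searched for letters known from cell cycle genes, a measure that the choice of genes did not use. RefSeq promoters of 300 bases (250 before and 50 after the gene start, build GRCm38.p6) were at hand for 39 members, 18 of replication and 21 of mitosis, and for 27025 genes in all. They were searched on both strands for the E2F letters TTTCCCGC, TTTCGCGC, TTTGCCGC and TTTGGCGC, for the cell cycle homology region (CHR) letters TTTGAA and TTCGAA, and for the CCAAT box. E2F letters were found in 6 of 18 replication promoters (33.3%), 1 of 21 mitosis promoters (4.76%) and 2.32% of all promoters. CHR letters were found in 15 of 21 mitosis promoters (71.4%), 4 of 18 replication promoters (22.2%) and 19.4% of all promoters. A CHR together with a CCAAT box was found in 14 of 21 mitosis promoters (66.7%) against 4 of 18 replication promoters and 7.7% of all. A CCAAT box, with or without a CHR, was in 66.7% of replication, 76.2% of mitosis and 37.9% of all promoters. The E2F letters of opposite strands can overlap, as in Mcm5, and a match is a description of the letters and not of binding.

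The promoters printed here show these letters in 2 replication genes (Mcm5, a helicase subunit, and Cdc6, an origin licensing factor) and 3 mitosis genes (Cdk1, the mitotic kinase, Plk1, Polo-like kinase, and Top2a, which untangles chromosomes). They are written 5′ to 3′ on the gene's strand, with every match to the E2F, CHR or CCAAT letters in capitals.
Mcm5, chr8:75109259-75109558 (plus strand): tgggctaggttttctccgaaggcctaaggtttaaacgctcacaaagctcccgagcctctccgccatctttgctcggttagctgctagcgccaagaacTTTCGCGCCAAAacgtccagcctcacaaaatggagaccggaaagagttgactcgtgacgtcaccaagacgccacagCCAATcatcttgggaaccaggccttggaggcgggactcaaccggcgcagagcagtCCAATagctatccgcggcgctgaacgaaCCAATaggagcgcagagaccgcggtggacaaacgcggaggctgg
Cdc6, chr11:98907901-98908200 (plus strand): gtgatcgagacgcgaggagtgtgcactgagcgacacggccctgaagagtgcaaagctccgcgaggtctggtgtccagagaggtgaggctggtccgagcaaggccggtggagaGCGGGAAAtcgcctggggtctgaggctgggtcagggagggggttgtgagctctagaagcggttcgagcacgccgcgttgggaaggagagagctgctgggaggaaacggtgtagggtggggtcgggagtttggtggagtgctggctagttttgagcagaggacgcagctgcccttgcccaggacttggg
Cdk1, chr10:69352863-69353162 (minus strand): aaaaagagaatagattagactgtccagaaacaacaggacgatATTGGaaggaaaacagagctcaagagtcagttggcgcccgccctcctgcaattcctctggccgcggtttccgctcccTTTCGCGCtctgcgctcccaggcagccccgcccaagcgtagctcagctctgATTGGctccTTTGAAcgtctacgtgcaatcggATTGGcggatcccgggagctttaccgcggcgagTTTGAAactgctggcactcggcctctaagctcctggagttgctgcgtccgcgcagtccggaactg
Plk1, chr7:122159185-122159484 (plus strand): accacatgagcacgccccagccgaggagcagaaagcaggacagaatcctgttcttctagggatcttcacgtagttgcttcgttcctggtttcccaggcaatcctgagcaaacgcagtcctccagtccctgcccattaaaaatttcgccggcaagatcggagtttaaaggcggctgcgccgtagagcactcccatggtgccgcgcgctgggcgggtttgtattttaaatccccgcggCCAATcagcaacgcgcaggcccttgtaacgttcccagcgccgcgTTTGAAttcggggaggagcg
Top2a, chr11:99024140-99024439 (minus strand): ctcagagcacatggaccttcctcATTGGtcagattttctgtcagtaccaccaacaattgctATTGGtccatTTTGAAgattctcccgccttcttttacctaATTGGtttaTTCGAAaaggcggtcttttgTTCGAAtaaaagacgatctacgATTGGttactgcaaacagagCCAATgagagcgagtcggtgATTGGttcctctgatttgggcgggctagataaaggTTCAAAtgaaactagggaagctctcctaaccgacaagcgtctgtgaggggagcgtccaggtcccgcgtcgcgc
Mcm5 carries the E2F letters on both strands at 1 place and 3 CCAAT boxes, and Cdc6 carries 1 E2F match and neither of the others. Cdk1 carries all 3 kinds of letters, Plk1 carries 1 CHR and 1 CCAAT box, and Top2a carries 4 CHR matches and 6 CCAAT boxes.

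Levels are log2 signals with each array's 75th percentile set to 0, so a level of 1 is a signal at 2 times that percentile, and levels of different probes are not compared. The 75th percentile of processed signal lay between 1091 and 2548 units, and 70.1% to 79.0% of probes were well above background. At labelled day 7 that percentile was 1204 and 1404 in WT and 1401 to 2318 in the db/db groups. At labelled day 14 it was 2383 and 1091 in WT and 2034 to 2548 in the db/db groups. The median deposited ratio of signal to that percentile was 0.159 to 0.182 at labelled day 7. At labelled day 14 it was 0.165 and 0.177 in WT and 0.1395 to 0.1433 in the db/db groups. The part of signal strength in the differences was not tested. Slide 1 held the replicate 1 arrays and slide 2 the replicate 2 arrays of labelled day 7. For labelled day 14, slide 3 held both db/db arrays with replicate 1 of the estrogen and vehicle groups, and slide 4 held their replicate 2 with both WT arrays. All labelled day 7 arrays were scanned on 1 day and all labelled day 14 arrays on another, so labelled day and scan day cannot be told apart. The labelled days also run opposite to the days printed in the study: of 40 db/db over WT fold changes of single genes, 0 lay within 1% of a probe of that gene on the same labelled day and 40 did so on the other labelled day. Whether labels or printed days were exchanged was not tested, and arrays are named by their labels. Every difference between labelled days would change sign if the day labels of all groups were exchanged. The replicates of a group are separate biological samples according to the series' design, and with 2 per group their number limits the precision of every value. Each mouse had 2 wounds, and the sample labels do not name the mouse of an array.

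Ccne2, encoding cyclin E2, was not well above background on any of the 16 arrays and is not described further. Aurkb, encoding Aurora kinase B of the chromosomal passenger complex, was well above background on 4 of 16 arrays, those of WT and vehicle-treated db/db wounds at labelled day 14. Cenpf, a kinetochore protein gene, was so on 12 of 16. The other 46 members were measured on all 16 arrays.

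The mitosis members stood apart by labelled day. The median log2 level of the 25 mitosis members measured on every array was -1.58 and -0.96 in WT, -1.28 and -1.22 in db/db, -0.72 and -1.44 with estrogen and -0.82 and -0.79 with vehicle at labelled day 7. It was -0.38 and 0.13 in WT, -0.62 and -0.11 in db/db, -0.16 and -0.47 with estrogen and 0.02 and 0.06 with vehicle at labelled day 14. All 8 arrays of labelled day 14 thus lay above all 8 arrays of labelled day 7. For the 21 replication members the median was between -0.29 and 0.49 at labelled day 7 and between 0.20 and 0.82 at labelled day 14, so that the 2 days overlapped. For the mitosis members both vehicle arrays lay above both WT and both db/db arrays at labelled day 7 and above both db/db and both estrogen arrays at labelled day 14, and the other pairs of groups within a day overlapped. In whole wounds, fewer cells of a type and less RNA per cell cannot be told apart.

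**Figure D1:**
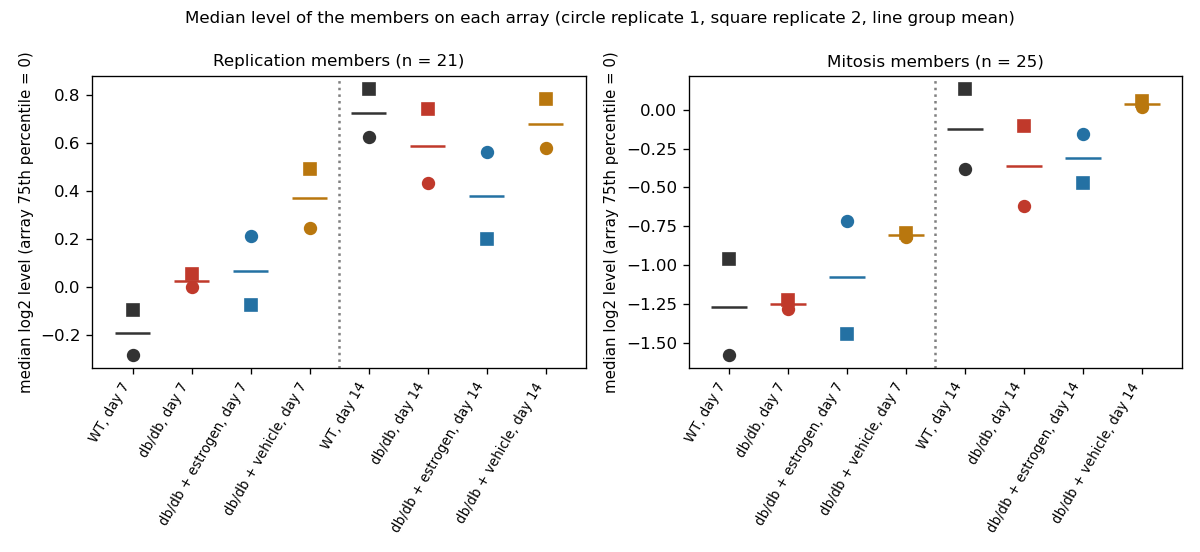
Median log2 level of the 21 replication members and the 25 mitosis members measured on all arrays, 1 symbol per array (circle, replicate 1; square, replicate 2), with a line at the mean of each group of 2 and 0 at the array's 75th percentile. Mitosis medians lie between -1.58 and -0.72 at labelled day 7 and between -0.62 and 0.13 at labelled day 14.

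The members moved together from array to array, also between arrays of 1 group. In WT at labelled day 7 replicate 2 lay above replicate 1 for 25 of 25 mitosis members (median difference 0.67 on the log2 scale) and 19 of 21 replication members (0.38). The same held in db/db at labelled day 14, with 25 of 25 (0.65) and 20 of 21 (0.31). In estrogen-treated wounds replicate 2 lay below replicate 1, for all 25 mitosis and all 21 replication members at labelled day 7 (medians -0.70 and -0.39) and for 24 of 25 and 21 of 21 at labelled day 14 (-0.28 and -0.20). Over the 25918 probes measured on all arrays the medians of these replicate differences were between -0.06 and 0.07. Over the 8 groups replicate 2 was higher for 42.8% to 58.0% of these probes. The spread of the list median between arrays of a group was 0.21 (SD) for replication and 0.29 for mitosis members on the log2 scale. It was taken over all 22 replication and all 27 mitosis members, including those not measured on every array.

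**Figure D2:**
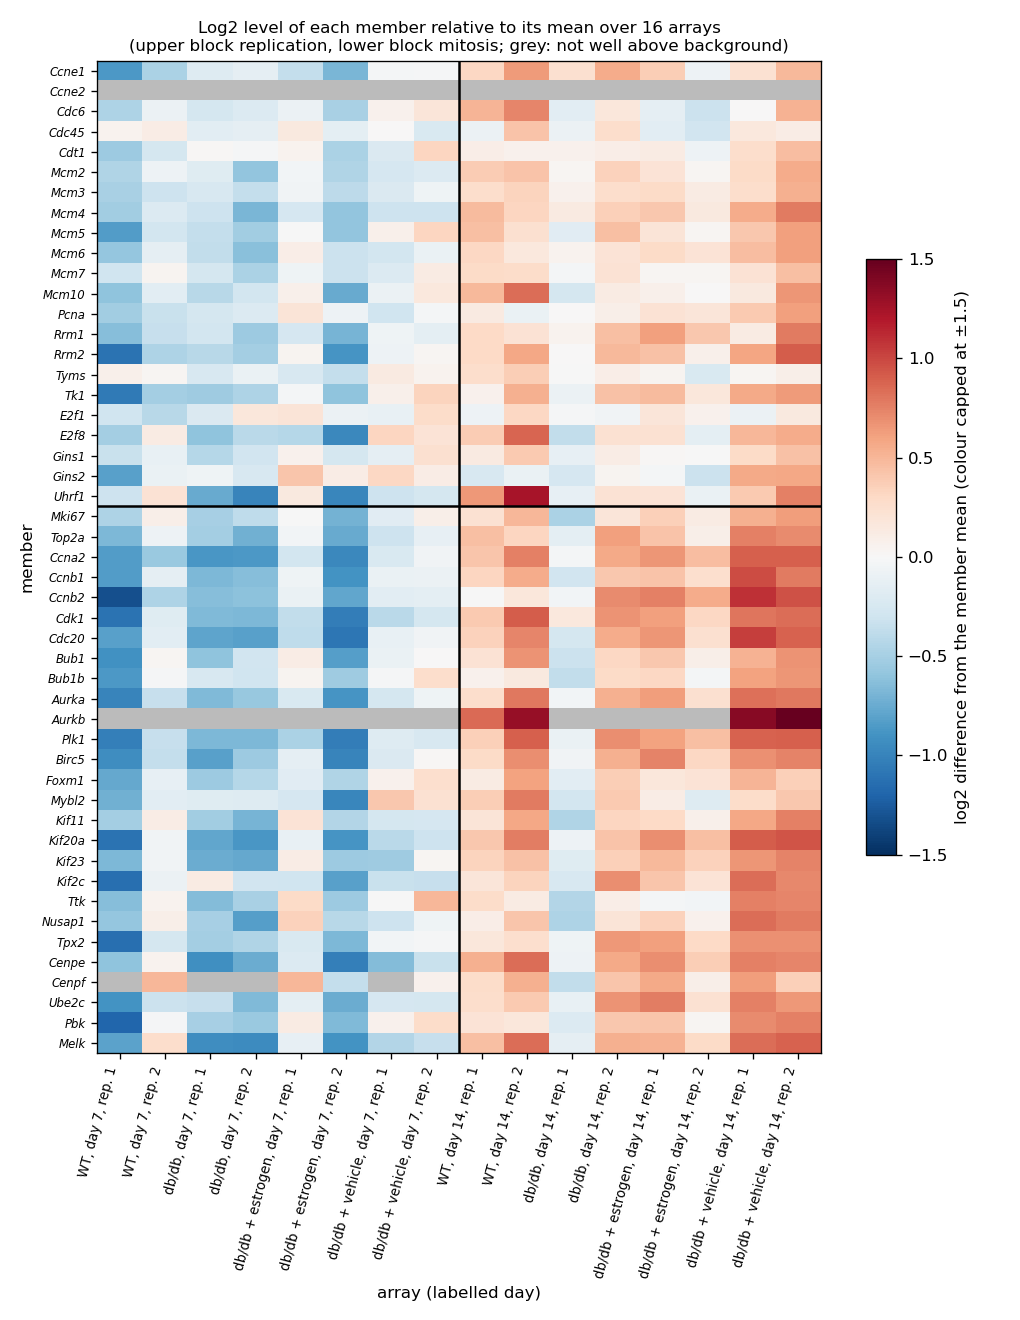
Log2 level of each of the 49 members (rows, replication above and mitosis below the line) on each of the 16 arrays (columns, labelled day 7 left and labelled day 14 right of the line), relative to the member's own mean over the arrays, with colour capped at 1.5. Grey cells are not well above background. Most rows are blue at labelled day 7 and red at labelled day 14, and whole columns within a group are lighter or darker together.

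Comparing labelled day 14 with labelled day 7 sets the 2 labelled days of each group side by side. It cannot give a direction in healing time. Labelled day and scan day cannot be told apart, and the printed days run opposite to the labels. Of the 49 members, 47 were tested in all 4 groups, and 43 had a positive log2 difference in all 4. Cenpf is among the 43, though in db/db it passed the filter on dim probes only through its brighter labelled day 14 arrays. The median over the mitosis members was 0.91 in WT, 0.81 in db/db, 0.84 with estrogen and 0.96 with vehicle, and over the replication members 0.70, 0.46, 0.37 and 0.38. Over all probes tested it was between -0.12 and -0.02, and 40.9% to 48.0% of these probes had a positive difference. A member was called at an unadjusted two-sided p below 0.05 in limma together with a fold change above 2. The members called higher were 13 of 48 in WT, 5 of 47 in db/db, 8 of 47 with estrogen and 10 of 48 with vehicle, beside 1.93%, 1.37%, 3.05% and 2.43% of all probes tested. At an adjusted p below 0.05 (Benjamini-Hochberg over all probes tested) with a positive difference the members were 0, 2, 7 and 8, beside 0.00993%, 1.98%, 3.68% and 2.81% of all probes. No member was called lower in any of the 4 groups. Aurkb passed the filter on dim probes only through its brighter group, and without it 12 were called in WT and 9 with vehicle, and 7 with vehicle had an adjusted p below 0.05.

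Called members were mostly mitosis genes. In the 3 db/db groups every called member was a mitosis gene, and in WT 9 of the 13 were. Aurkb, tested only through its brighter group, is among these mitosis genes in WT and with vehicle. Without it the called members were 12 in WT and 9 with vehicle. Ccna2, Cdk1 and Kif20a were called in all 4 groups, Plk1, Cdc20 and Cenpe in 3, and no replication member in more than 1. This split rests on the fold threshold. At an adjusted p below 0.05 in limma, replication members passed in db/db groups too, at less than a fold of 2. These were Mcm4 in 3 groups and Mcm6, Pcna and Rrm1 in 1 each. Single arrays carried much of these counts. In WT 2 members were called without replicate 1 of labelled day 7, 29 without replicate 2 of labelled day 7, 22 without replicate 1 of labelled day 14 and 6 without replicate 2 of labelled day 14. In db/db 17 were called without replicate 1 and 0 without replicate 2 of labelled day 14. With estrogen 20 and 1 were called without replicates 1 and 2 of labelled day 7, and 3 and 12 without those of labelled day 14. With vehicle the count was 15 without replicate 2 of labelled day 7 and 9 to 13 without any other array. The mitosis median stayed positive without any 1 array, from 0.44 to 1.35 over the 4 groups, and the replication median from 0.12 to 0.85.

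**Figure D3:**
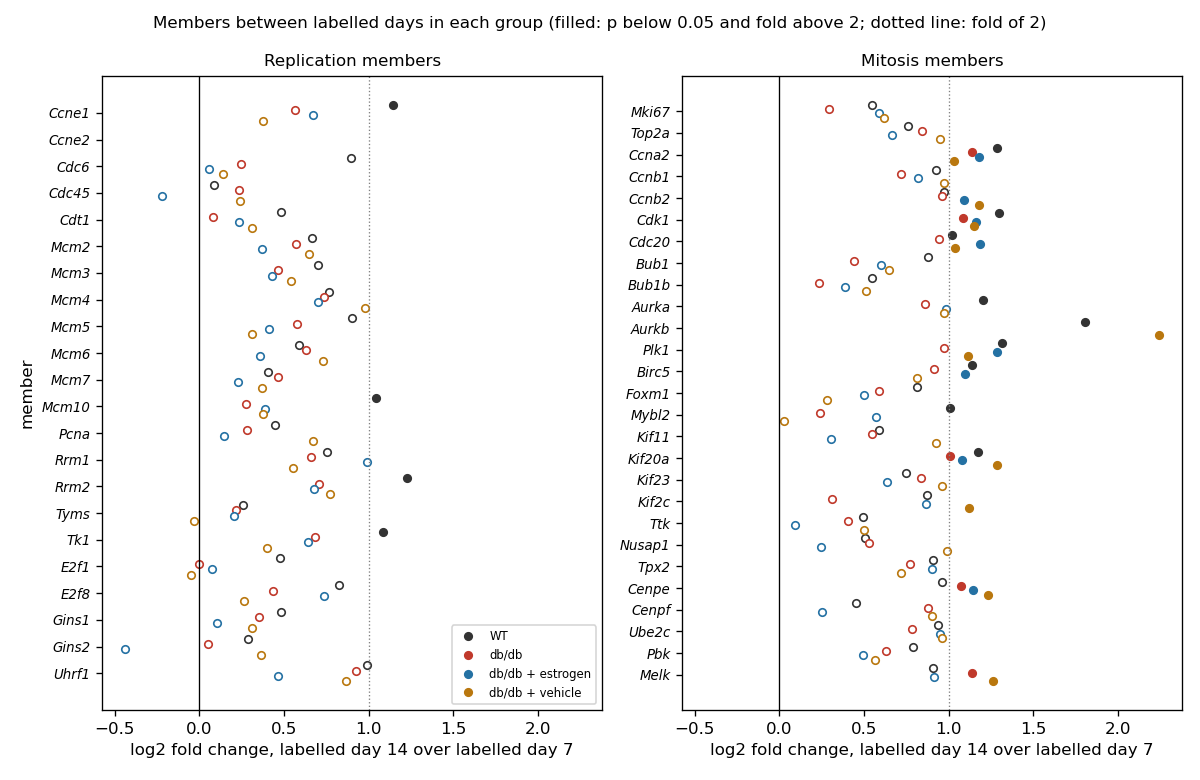
Log2 fold change of each member tested, labelled day 14 over labelled day 7, with 1 colour for each of the 4 groups, with filled symbols where p was below 0.05 and the fold change above 2. Nearly all symbols lie right of 0, and in the db/db groups the filled symbols are all on the mitosis side. The Aurkb symbols are fitted values of a probe not above background at labelled day 7.

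Among the regulators of entry into S phase, Ccne1, which encodes cyclin E1, measured -0.67 and -0.28 in WT, 0.00 and 0.05 in db/db, -0.17 and -0.50 with estrogen and 0.16 and 0.17 with vehicle at labelled day 7. Ccne1 on the labelled day 14 arrays measured 0.51 and 0.82 in WT, 0.43 and 0.74 in db/db, 0.56 and 0.12 with estrogen and 0.41 and 0.67 with vehicle. The difference between labelled days was 1.14 (SE 0.22, adjusted p = 0.163) in WT, where the groups did not overlap and the call was made, and 0.56, 0.67 and 0.38 in the untreated, estrogen and vehicle db/db groups. E2f1, the activating E2F factor of the G1 to S switch, measured -0.28 and -0.40 in WT, -0.21 and 0.19 in db/db, 0.21 and -0.08 with estrogen and -0.09 and 0.30 with vehicle at labelled day 7. E2f1 on the labelled day 14 arrays measured -0.06 and 0.33 in WT, 0.00 and -0.03 in db/db, 0.20 and 0.08 with estrogen and -0.07 and 0.17 with vehicle. It had one of the narrowest ranges of all members, 0.73 from lowest to highest array, and its differences between labelled days were 0.48 in WT, 0.00 in db/db, 0.07 with estrogen and -0.05 with vehicle. E2f8, an atypical E2F that represses, measured -1.44 and -0.81 in WT and -1.36 and -1.89 with estrogen at labelled day 7 against -0.55 and -0.06 and -0.70 and -1.07 at labelled day 14. Uhrf1, which keeps DNA methylation on newly copied strands, ranged over 2.24 on the log2 scale, the widest of the replication members measured on all arrays. It measured 0.70 and 1.23 in WT, 0.25 and 0.01 in db/db, 1.16 and 0.03 with estrogen and 0.70 and 0.74 with vehicle at labelled day 7. Uhrf1 on the labelled day 14 arrays measured 1.66 and 2.25 in WT, 0.88 and 1.23 in db/db, 1.21 and 0.91 with estrogen and 1.40 and 1.76 with vehicle, so that both db/db arrays lay below both WT arrays on each day.

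Origin licensing and firing genes had the lowest medians of the 8 roles between labelled days, over 6 genes 0.48 in WT, 0.24 in db/db, 0.08 with estrogen and 0.31 with vehicle. Cdc6 measured -4.43 and -4.05 in WT, -4.23 and -4.18 in db/db, -4.06 and -4.45 with estrogen and -3.91 and -3.78 with vehicle at labelled day 7. Cdc6 on the labelled day 14 arrays measured -3.46 and -3.23 in WT, -4.12 and -3.79 in db/db, -4.10 and -4.29 with estrogen and -3.96 and -3.45 with vehicle. Both WT arrays and vehicle replicate 2 of labelled day 14 lay highest, and the difference between days was 0.90 (SE 0.23, adjusted p = 0.225) in WT but 0.24, 0.06 and 0.14 in the db/db groups, a contrast whose own test is given further on. Mcm10, which helps to start the helicase, measured -2.08 and -1.63 in WT at labelled day 7 and -0.98 and -0.64 at labelled day 14, a difference of 1.04 (SE 0.30, adjusted p = 0.255), and -1.88 and -1.74 and -1.73 and -1.34 in db/db. Gins2, a GINS subunit, had a negative difference with estrogen (-0.44), as did Cdc45 (-0.22), the GINS partner at the fork, and neither had a p below 0.05.

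All 7 helicase and clamp genes had positive differences between labelled days in all 4 groups. Mcm2 measured -1.04 and -0.67 in WT, -0.77 and -1.19 in db/db, -0.64 and -1.05 with estrogen and -0.84 and -0.80 with vehicle at labelled day 7. Mcm2 on the labelled day 14 arrays measured -0.21 and -0.17 in WT, -0.56 and -0.25 in db/db, -0.38 and -0.56 with estrogen and -0.31 and -0.03 with vehicle, and all labelled day 14 arrays lay above all labelled day 7 arrays. Mcm4 was the replication member most often past the adjusted threshold. Its level was 1.27 and 1.58 in WT, 1.48 and 1.102 in db/db, 1.54 and 1.19 with estrogen and 1.48 and 1.48 with vehicle at labelled day 7. Mcm4 on the labelled day 14 arrays measured 2.26 and 2.12 in WT, 1.92 and 2.14 in db/db, 2.20 and 1.94 with estrogen and 2.35 and 2.57 with vehicle. Its difference was 0.98 (SE 0.20, adjusted p = 0.0135) with vehicle and 0.76, 0.74 and 0.70 in WT, db/db and estrogen wounds, with adjusted p = 0.235, 0.0388 and 0.0467 in limma. Mcm5 measured -0.67 and -0.10 in WT, -0.19 and -0.34 in db/db, 0.16 and -0.42 with estrogen and 0.24 and 0.49 with vehicle at labelled day 7. Mcm5 on the labelled day 14 arrays measured 0.62 and 0.41 in WT, 0.00 and 0.62 in db/db, 0.37 and 0.20 with estrogen and 0.58 and 0.78 with vehicle. Its labelled days overlapped over all arrays, and the differences were 0.90 in WT, 0.58 in db/db, 0.41 with estrogen and 0.31 with vehicle. Pcna, the sliding clamp gene, measured 2.52 and 2.71 in WT, 2.78 and 2.84 in db/db, 3.23 and 2.96 with estrogen and 2.74 and 3.01 with vehicle at labelled day 7. Pcna on the labelled day 14 arrays measured 3.17 and 2.94 in WT, 3.05 and 3.13 in db/db, 3.26 and 3.23 with estrogen and 3.43 and 3.66 with vehicle, and its difference reached the adjusted threshold with vehicle, 0.67 (SE 0.16, adjusted p = 0.0285), the highest 2 arrays of all 16.

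Of the nucleotide supply genes, Rrm2, the regulated subunit of ribonucleotide reductase, measured 0.80 and 1.43 in WT, 1.49 and 1.39 in db/db, 1.95 and 1.02 with estrogen and 1.82 and 1.93 with vehicle at labelled day 7. Rrm2 on the labelled day 14 arrays measured 2.20 and 2.48 in WT, 1.91 and 2.38 in db/db, 2.34 and 1.98 with estrogen and 2.49 and 2.81 with vehicle. The difference was 1.22 (SE 0.32, adjusted p = 0.236) in WT and 0.70, 0.67 and 0.77 in db/db, estrogen and vehicle wounds, where it was not called. Rrm1, the other subunit, measured 0.93 and 0.48 at labelled day 7 and 1.80 and 1.59 at labelled day 14 with estrogen, a difference of 0.99 (SE 0.25, adjusted p = 0.0337), just under a fold of 2. Tk1, thymidine kinase, measured -0.17 and 0.39 in WT at labelled day 7 and 0.96 and 1.43 at labelled day 14, with a difference of 1.08 (SE 0.28, adjusted p = 0.235). Tyms, thymidylate synthase, differed little, with 0.26 in WT, 0.22 in db/db, 0.21 with estrogen and -0.03 with vehicle.

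Among the mitotic cyclins and Cdk1, Ccna2, encoding cyclin A2, which acts in S phase and early mitosis, measured -0.04 and 0.24 in WT, -0.08 and -0.07 in db/db, 0.53 and -0.17 with estrogen and 0.57 and 0.75 with vehicle at labelled day 7. Ccna2 on the labelled day 14 arrays measured 1.22 and 1.56 in WT, 0.77 and 1.37 in db/db, 1.46 and 1.26 with estrogen and 1.69 and 1.70 with vehicle. No labelled day 7 array reached the lowest labelled day 14 array. Its difference was 1.29 in WT, 1.14 in db/db, 1.18 with estrogen and 1.03 with vehicle, with adjusted p = 0.191, 0.0214, 0.0210 and 0.0327 in limma. Cdk1 measured -1.88 and -0.96 in WT, -1.45 and -1.45 in db/db, -1.15 and -1.82 with estrogen and -1.19 and -1.04 with vehicle at labelled day 7. Cdk1 on the labelled day 14 arrays measured -0.38 and 0.13 in WT, -0.62 and -0.10 in db/db, -0.17 and -0.47 with estrogen and 0.02 and 0.06 with vehicle. Here too all labelled day 14 arrays lay above all labelled day 7 arrays, and the differences were 1.30 in WT, 1.09 in db/db, 1.16 with estrogen and 1.15 with vehicle, with SE 0.33. Cdk1 has 2 further probes of lower signal, of which 1 gave 0.89 to 1.68 and the other -1.32 to -0.78 in these 4 comparisons, so that its probes disagree. Over the 12 members with more than 1 probe, the probes differed in sign in 31 of 192 pairs of a member and a comparison and in the call in 15. Ccnb1, encoding cyclin B1, measured -0.81 and -0.10 in WT, -0.64 and -0.61 in db/db, -0.03 and -0.87 with estrogen and -0.07 and -0.06 with vehicle at labelled day 7. Ccnb1 on the labelled day 14 arrays measured 0.36 and 0.59 in WT, -0.25 and 0.43 in db/db, 0.46 and 0.28 with estrogen and 1.01 and 0.81 with vehicle, with differences of 0.93 in WT, 0.72 in db/db, 0.82 with estrogen and 0.97 with vehicle that stayed below a fold of 2.

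Foxm1 and Mybl2 switch on mitosis genes. Foxm1 measured -2.22 and -1.57 in WT, -1.99 and -1.87 in db/db, -1.61 and -1.90 with estrogen and -1.38 and -1.20 with vehicle at labelled day 7. Foxm1 on the labelled day 14 arrays measured -1.33 and -0.84 in WT, -1.61 and -1.07 in db/db, -1.27 and -1.24 with estrogen and -0.93 and -1.09 with vehicle, and its differences were 0.81 in WT, 0.59 in db/db, 0.50 with estrogen and 0.28 with vehicle. Mybl2 was called in WT, with 1.01 (SE 0.30, adjusted p = 0.265), and its difference was 0.24, 0.57 and 0.02 in db/db, estrogen and vehicle wounds. Mki67, encoding the proliferation marker Ki-67, measured 1.84 and 2.39 in WT, 1.80 and 1.92 in db/db, 2.29 and 1.59 with estrogen and 2.13 and 2.38 with vehicle at labelled day 7. Mki67 on the labelled day 14 arrays measured 2.52 and 2.79 in WT, 1.83 and 2.48 in db/db, 2.65 and 2.42 with estrogen and 2.83 and 2.92 with vehicle. In db/db, replicate 1 of labelled day 14 lay between the 2 arrays of labelled day 7, and no difference between days reached a fold of 2 (0.54 in WT, 0.29 in db/db, 0.59 with estrogen and 0.62 with vehicle). Top2a measured -1.58 and -0.98 in WT, -1.41 and -1.62 in db/db, -0.95 and -1.66 with estrogen and -1.21 and -1.03 with vehicle at labelled day 7. Top2a on the labelled day 14 arrays measured -0.46 and -0.59 in WT, -1.05 and -0.29 in db/db, -0.47 and -0.82 with estrogen and -0.14 and -0.20 with vehicle, and the differences were 0.76 in WT, 0.84 in db/db, 0.66 with estrogen and 0.95 with vehicle.

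Among the mitotic kinases, Plk1 measured -0.07 and 0.61 in WT, 0.29 and 0.28 in db/db, 0.48 and -0.08 with estrogen and 0.77 and 0.71 with vehicle at labelled day 7. Plk1 on the labelled day 14 arrays measured 1.31 and 1.86 in WT, 0.86 and 1.66 in db/db, 1.56 and 1.42 with estrogen and 1.85 and 1.86 with vehicle. All labelled day 14 arrays lay above all labelled day 7 arrays, and the difference was 1.29 (SE 0.32, adjusted p = 0.0308) with estrogen and 1.32, 0.97 and 1.11 in WT, db/db and vehicle wounds. Aurkb measured -8.88 and -8.79 in WT and -8.57 and -8.92 with vehicle at labelled day 7, none of them well above background, and -7.26 and -6.81 and -6.74 and -6.26 at labelled day 14. Against a floor set for the dimmer arrays, Aurkb was 1.64-fold higher at labelled day 14 in WT and 2.17-fold higher with vehicle. These folds are a description, since the probe passed the filter through its bright group alone. Normexp background correction turned the log2 difference to -0.14 in WT and lowered it to 0.06 with vehicle, and neither was then called. The folds set the mean of the brighter group against the higher of the dimmer array's own level and a floor. That floor is the array's lowest signal of any probe called well above background. They are not lower bounds, since some probes above the floor were not well above background. Examples at labelled day 7 are Far2 at -7.36 on WT replicate 1 and Ngp at -6.61 on WT replicate 2. Melk, an embryonic leucine zipper kinase, measured -2.23 and -2.23 at labelled day 7 and -1.43 and -0.76 at labelled day 14 in db/db, and -1.74 and -1.64 against -0.45 and -0.41 with vehicle. Birc5, encoding survivin of the same passenger complex as Aurora kinase B, was called in WT and with estrogen (1.14 and 1.09) and measured 0.91 and 0.81 in the others. The checkpoint genes Bub1, Bub1b and Ttk were called in none of the 4 groups, with differences of 0.09 to 0.88.

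Of the motors and kinetochore genes, Kif20a, a kinesin of cytokinesis, measured -1.28 and -0.23 in WT, -0.96 and -1.04 in db/db, -0.29 and -1.05 with estrogen and -0.57 and -0.48 with vehicle at labelled day 7. Kif20a on the labelled day 14 arrays measured 0.24 and 0.60 in WT, -0.24 and 0.26 in db/db, 0.53 and 0.28 with estrogen and 0.74 and 0.77 with vehicle. Its differences were 1.17 in WT, 1.01 in db/db, 1.08 with estrogen and 1.28 with vehicle, past the adjusted threshold with vehicle (adjusted p = 0.0435 in limma). Cenpe, a kinetochore motor, was called in the 3 db/db groups with 1.08, 1.14 and 1.23, and measured 0.96 in WT. Kif2c was called with vehicle alone (1.12), and its difference in db/db was 0.31. Kif11, Kif23, Nusap1 and Tpx2 were called in no group. Of the anaphase promoting complex genes, its activator Cdc20 measured 0.79 and 1.45 in WT, 0.81 and 0.79 in db/db, 1.22 and 0.52 with estrogen and 1.49 and 1.55 with vehicle at labelled day 7. Cdc20 on the labelled day 14 arrays measured 1.94 and 2.33 in WT, 1.33 and 2.15 in db/db, 2.27 and 1.84 with estrogen and 2.64 and 2.48 with vehicle. It was called in WT, estrogen and vehicle wounds and missed a fold of 2 in db/db (1.02 in WT, 0.94 in db/db, 1.18 with estrogen and 1.04 with vehicle), while Ube2c, the complex's ubiquitin-conjugating enzyme, stayed between 0.78 and 0.96 and was not called.

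Within a labelled day few members differed between groups. Members moved together from array to array, so counts of members in a shared direction are not independent and rest on 2 arrays per group. Over the 12 comparisons 566 tests of members were made, of which 2 were called, both Aurkb, 46 had an unadjusted p below 0.05 and 2 an adjusted p below 0.05. Over all probes 5.38% to 34.8% had an unadjusted p below 0.05 in these comparisons. Since Aurkb was tested only through its brighter group, the counts without it are those to read, and they were 561 tests with 0 called in limma, 44 with an unadjusted p below 0.05 and 1 with an adjusted p below 0.05, Cdc6 between estrogen and WT at labelled day 14.

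**Figure D4:**
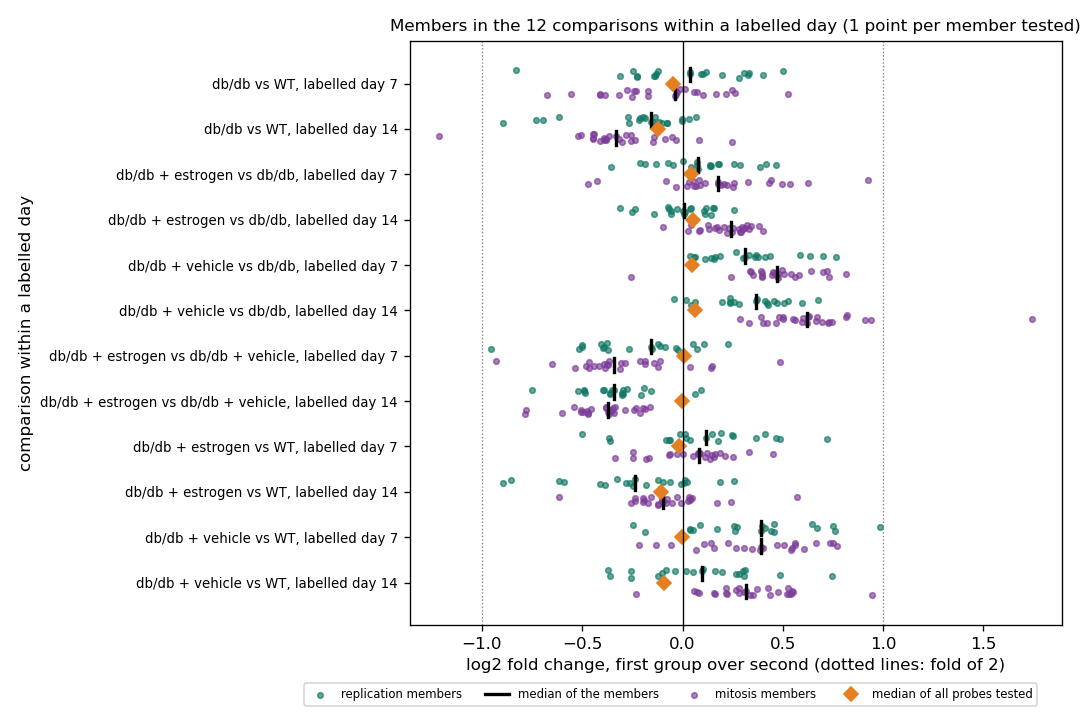
Log2 fold change of each member tested (points, replication and mitosis members on separate rows) in the 12 comparisons within a labelled day, first group over second, with black bars at the median of each list and diamonds at the median of all probes tested. Apart from Aurkb at labelled day 14, all points lie inside the dotted lines at a fold of 2.

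Comparing db/db with WT wounds asks whether the diabetic mice differ in cell division genes. At labelled day 7 none of 46 members tested was called in limma, 2 had an unadjusted p below 0.05 and 0 an adjusted p below 0.05, while 14.1% of all probes tested were called. These were Uhrf1 at -0.83 (SE 0.36, adjusted p = 0.152) and Ccne1 at 0.50 (SE 0.22, adjusted p = 0.159). Mki67 differed by -0.25 with a 95% interval of -0.90 to 0.39, and Cdk1 by -0.03 with an interval of -0.77 to 0.71, intervals that reach most of the way to a fold of 2. The medians were 0.04 for replication, -0.04 for mitosis members and -0.05 for all probes. They depended on the slide: the mitosis median over the 25 members measured on all arrays was 0.23 on slide 1 and -0.47 on slide 2, where the replicate 2 WT array was the higher of its pair, and the replication median 0.21 and -0.14. Without WT replicate 1 of labelled day 7, 3 members were called, all lower in db/db, and without WT replicate 2 a single member was called, higher.

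At labelled day 14, 44 of 48 members had a negative log2 difference of db/db from WT, with medians of -0.16 for replication and -0.33 for mitosis members against -0.12 for all probes. The 44 include Aurkb, and over all probes tested 41.4% of differences were positive. Of the 48, 1 was called, beside 18.0% of all probes. That was Aurkb, at -7.26 and -6.81 in WT and -8.68 and -7.82 in db/db, whose arrays were not well above background. Against the floor described above, Aurkb was 1.62-fold lower in db/db, which is not a lower bound. It entered the test through the WT arrays alone, so its call is no support for a difference, and it was not called with slide as a fixed block, normexp or quantile normalization. No slide held both groups. Uhrf1 (-0.90, adjusted p = 0.104), Mcm10 (-0.73), E2f8 (-0.70) and Cdc6 (-0.62, adjusted p = 0.0820 in limma) had an unadjusted p below 0.05. Mybl2 measured 0.14 and 0.54 in WT and -0.51 and 0.15 in db/db, a difference of -0.52, and Mki67 one of -0.51 with a 95% interval of -1.15 to 0.14. The mitosis median was 0.00 without db/db replicate 1 and -0.64 without db/db replicate 2. The count was 0 without db/db replicate 1 or WT replicate 2, and 2 without db/db replicate 2 or WT replicate 1.

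Comparing estrogen-treated with untreated db/db wounds, no member was called on either day, beside 9.92% of all probes at labelled day 7 and 3.91% at labelled day 14. Of the 47 members tested on each day 0 had an unadjusted p below 0.05 in limma, and 0 an adjusted p below 0.05. At labelled day 7 the medians were 0.08 for replication and 0.18 for mitosis members against 0.04 for all probes, and 37 of 47 differences were positive. Cenpf, among the 37, was tested only through its brighter estrogen arrays. Positive differences made up 54.9% of all probes tested. Again the slides differed, with a mitosis median of 0.55 on slide 1 and -0.22 on slide 2, and 3 members were called, higher, without estrogen replicate 2. The mitosis median at labelled day 14 was 0.24, with 25 of 26 positive. The replication median was 0.01, with 12 of 21 positive, against 0.05 for all probes, of which 57.9% were positive. On slide 3, which held 1 estrogen and both db/db arrays, the mitosis and replication medians were 0.37 and 0.13. Without db/db replicate 1 the mitosis median was -0.11, and without db/db replicate 2 it was 0.59. Mki67 differed by 0.08 (95% interval -0.56 to 0.73) at labelled day 7 and 0.38 (-0.26 to 1.03) at labelled day 14.

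Vehicle-treated db/db wounds lay above untreated db/db wounds for nearly every member on both days, by less than a fold of 2 except for Aurkb. At labelled day 7, 45 of 46 differences were positive, with medians of 0.31 for replication and 0.47 for mitosis members against 0.05 for all probes. Over all probes tested 55.1% of differences were positive. No member was called, beside 4.83% of all probes, 6 had an unadjusted p below 0.05 in limma (Mcm5, Foxm1, Tk1, Ccna2, E2f8 and Ttk, at 0.64 to 0.81) and 0 an adjusted p below 0.05. Within slides the mitosis medians were 0.46 and 0.55, and the replication medians 0.21 and 0.40. Leaving out any 1 array kept the mitosis median between 0.42 and 0.53, and without vehicle replicate 1 a single member was called. At labelled day 14, 47 of 48 were positive, Aurkb among them, with medians of 0.37 and 0.62 against 0.06 for all probes. Over all probes tested 56.9% of differences were positive. Of the 48 members 1 was called, beside 7.51% of all probes. In limma 10 had an unadjusted p below 0.05, all positive, with 0 at an adjusted p below 0.05. The called member was Aurkb, at -6.74 and -6.26 with vehicle against -8.68 and -7.82, or 2.34-fold higher against the floor described above. It entered the test through the vehicle arrays alone, so its call is no support for a difference, and it was not called with normexp. Nusap1, a spindle protein gene, measured -0.23 and -0.28 against -1.52 and -0.86, a difference of 0.94 (SE 0.32, adjusted p = 0.190). Ttk, a checkpoint kinase gene, measured -4.08 and -4.10 against -5.27 and -4.73, a difference of 0.91 (SE 0.32, adjusted p = 0.195). Among the replication members Gins2 measured -1.28 and -1.26 against -2.10 and -1.80 (0.68, SE 0.23, adjusted p = 0.195), E2f8 -0.44 and -0.37 against -1.30 and -0.70 (0.59) and Uhrf1 differed by 0.53. There were 10 called members without db/db replicate 2 and 1 without any other array, and the mitosis median was 0.32 without db/db replicate 1 and 0.94 without replicate 2. On slide 3, with 1 vehicle array, the medians were 0.61 for mitosis and 0.22 for replication members, and with slide as a fixed block 2 members were called.

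Comparing estrogen with vehicle sets apart the hormone from the oil in which it was given. At labelled day 7, 39 of 47 members had a negative difference, with medians of -0.16 for replication and -0.34 for mitosis members against 0.01 for all probes. Over all probes tested 50.7% of differences were positive. No member was called, beside 8.99% of all probes. In limma 4 had an unadjusted p below 0.05, all negative (E2f8 -0.95, Mybl2 -0.93, Ccne1 -0.50 and Tyms -0.40), and 0 an adjusted p below 0.05. The mitosis median was 0.06 on slide 1 and -0.78 on slide 2. Without estrogen replicate 1, or without vehicle replicate 2, 2 members were called, and without estrogen replicate 2 the mitosis median was 0.04. At labelled day 14, 46 of 48 were negative, with medians of -0.34 and -0.37 against 0.00 for all probes. Aurkb, among the 46, was tested only through its brighter vehicle arrays. Over all probes tested 49.3% of differences were positive. No member was called, beside 0.987% of all probes, 2 had an unadjusted p below 0.05 in limma (Ttk -0.78 and Gins2 -0.75, both with adjusted p = 0.873) and 0 an adjusted p below 0.05. The mitosis medians were -0.27 on slide 3 and -0.53 on slide 4, the replication medians -0.15 and -0.53, and leaving out any 1 array kept the mitosis median between -0.51 and -0.26. Mki67 differed by -0.31 (95% interval -0.96 to 0.33) at labelled day 7 and -0.34 (-0.98 to 0.30) at labelled day 14.

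Set against WT, the 2 treated db/db groups were compared with the same WT arrays as the untreated db/db group. Estrogen-treated wounds gave medians of 0.12 for replication and 0.08 for mitosis members at labelled day 7, and of -0.24 and -0.10 at labelled day 14. No member was called, beside 8.13% and 13.3% of all probes. In limma 3 members had an unadjusted p below 0.05 at labelled day 7 (Gins2 0.72, Pcna 0.48 and Tyms -0.36), with 0 at an adjusted p below 0.05. There were 3 at labelled day 14 (Uhrf1 -0.89, Cdc6 -0.85 and Tyms -0.41), of which Cdc6 passed the adjusted threshold, -0.85 (SE 0.23, adjusted p = 0.0377). The slide 1 and slide 2 mitosis medians at labelled day 7 were 0.76 and -0.64, and that of slide 4 at labelled day 14 was -0.19. A single member was called without WT replicate 2 at labelled day 7, and 1 at labelled day 14 without estrogen replicate 1 or WT replicate 1.

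Vehicle-treated wounds gave medians against WT of 0.39 for both lists at labelled day 7 and of 0.10 for replication and 0.32 for mitosis members at labelled day 14, beside 0.00 and -0.09 for all probes. No member was called, beside 10.3% and 13.4% of all probes, while 8 and 3 had an unadjusted p below 0.05 in limma, all positive, and 0 an adjusted p below 0.05. Tk1 was the largest at labelled day 7, with 0.97 and 1.23 against -0.17 and 0.39 in WT (0.98, SE 0.28, adjusted p = 0.0580), and Ccnb2, encoding cyclin B2, at labelled day 14 (0.95, SE 0.32, adjusted p = 0.0823). The mitosis medians within slides were 0.71 and 0.08 at labelled day 7 and 0.33 on slide 4 at labelled day 14. At labelled day 7, 8 members were called without WT replicate 2, 1 without vehicle replicate 1 and none without WT replicate 1, and 1 was called at labelled day 14 without vehicle replicate 2 or WT replicate 2.

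Whether a group difference changed between labelled days was tested in the same fit. For db/db over WT, estrogen over db/db, vehicle over db/db and estrogen over vehicle, 0 members had an adjusted p below 0.05 in limma, beside 0.693%, 0.0953%, 0% and 0.00979% of all probes. The members with an unadjusted p below 0.05 were 0, 0, 0 and 2, the last being Gins2 and Pcna. For Cdc6 the db/db over WT difference was 0.65 higher at labelled day 7 than at labelled day 14 (SE 0.32, adjusted p = 0.417).

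Further genes of mitosis and replication, taken from fixed lists of names, mostly went in the members' direction between labelled days. Of all probes tested, 1.93% in WT, 1.37% in db/db, 3.05% with estrogen and 2.43% with vehicle were called higher. Positive differences made up 40.9% to 48.0% of them over the 4 groups. Of 58 other mitosis genes 54 to 57 had a positive difference in the 4 groups, with medians of 0.77 in WT, 0.47 in db/db, 0.53 with estrogen and 0.68 with vehicle, and 12, 1, 4 and 6 were called higher, among them Pimreg (1.36) and Kifc1 (1.36) in WT, Prc1 (1.02) in db/db, Sgo2a (1.09) with estrogen and Shcbp1 (1.30) with vehicle. Of 40 other replication genes 30 to 36 had a positive difference, with medians of 0.17 to 0.46. In WT 4 were called (the largest Exo1, an exonuclease, at 1.21). The calls were 0 in db/db, 0 with estrogen and 1 with vehicle (Fanci, 1.09), near or below the share of all probes. The G1 drivers, cyclins D and their kinases among them, had medians of 0.24 to 0.42 over 11 genes and 1 called member, Ccnd2, encoding cyclin D2, lower with estrogen (-1.18). The 17 brakes of the cell cycle had medians of -0.19 to 0.06.

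Within labelled days some listed genes outside the 49 were called against WT. Those named here are examples of the largest fold changes, not a result about their lists. Of all probes, 14.1% and 18.0% were called between untreated db/db and WT at labelled days 7 and 14. Against WT the shares were 8.13% and 13.3% with estrogen and 10.3% and 13.4% with vehicle. Chaf1b, which encodes a subunit of the chromatin assembly factor that loads histones at the fork, was lower than in WT in untreated db/db at labelled day 7 (-1.31, SE 0.21, adjusted p = 0.00448) and labelled day 14 (-1.49, SE 0.21, adjusted p = 0.00179). With estrogen it was -1.13 and -1.61, and with vehicle -0.77 and -1.27, on the 2 days against the same WT arrays (adjusted p = 0.0144, 0.00173, 0.0493 and 0.00461 in limma). Also lower in db/db were Esco2, an acetyltransferase of sister chromatid cohesion, at labelled day 7 (-1.18) and Chek1, the replication checkpoint kinase, at labelled day 14 (-1.29). Orc1, an origin recognition subunit, was higher with vehicle than in WT at labelled day 7 (1.46, adjusted p = 0.0212).

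Among the brakes, Cdkn1c, which encodes the cyclin-dependent kinase inhibitor p57, measured 2.73 and 3.53 in WT, 2.87 and 2.15 in db/db, 1.91 and 1.73 with estrogen and 0.69 and 1.00 with vehicle at labelled day 7. Cdkn1c on the labelled day 14 arrays measured 2.38 and 2.18 in WT, 4.04 and 3.18 in db/db, 0.91 and 1.29 with estrogen and 1.17 and 0.12 with vehicle. It was lower with vehicle than in untreated db/db at labelled day 14 (-2.96, SE 0.42, adjusted p = 0.0369) and differed by -2.51 with estrogen (adjusted p = 0.0814 in limma). Cdkn2c, encoding the inhibitor p18, was lower in db/db than in WT at labelled day 7 (-1.07, adjusted p = 0.0172) and higher with estrogen than in untreated db/db (1.35, adjusted p = 0.0102), 2 comparisons that share the db/db arrays. Gadd45a, a stress response gene, was lower with estrogen than in untreated db/db at labelled day 7 (-1.34, adjusted p = 0.0438 in limma). Btg2, an antiproliferative gene, was higher in db/db than in WT at labelled day 14 (1.88, adjusted p = 0.0169 in limma). These brakes too are examples picked by size. Of all probes, 14.1% and 18.0% were called between db/db and WT at labelled days 7 and 14. Against untreated db/db the shares were 9.92% and 3.91% with estrogen, and 7.51% with vehicle at labelled day 14.

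Markers of cell types, some of which hold dividing cells, moved with some of these comparisons, and their part in the members' values was not tested. The 6 basal keratinocyte markers, summed as signal over the 75th percentile, were at 237 to 296 in WT, 151 to 194 in db/db, 282 to 320 with estrogen and 290 to 304 with vehicle at labelled day 7. Their sums at labelled day 14 were 333 to 351, 130 to 266, 261 to 370 and 354 to 369. The lowest of these at labelled day 14, db/db replicate 1, also had the lowest mitosis median of that day, whereas at labelled day 7 the lowest mitosis median was that of WT replicate 1, with a sum of 296. All 6 were well above background on all arrays. The 10 hair follicle matrix and inner root sheath markers summed to 2.35 and 38.8 in WT, 0.58 to 0.73 in db/db, 11.5 and 15.4 with estrogen and 1.30 to 4.41 with vehicle at labelled day 7, and to 0.73 to 2.52 over all groups at labelled day 14, when 7 to 10 of them were well above background. At labelled day 14 the sums were 1.00 to 1.23 in WT and 0.73 to 2.52 with estrogen. In these 2 groups the markers were thus lower than at labelled day 7, while the members were higher. The 2 WT sums of labelled day 7 lay far apart. The 6 endothelial markers had positive medians between labelled days of 0.35 in WT, 0.89 in db/db, 0.60 with estrogen and 0.58 with vehicle. Within labelled day 14, however, their sums were 14.6 to 16.4 in db/db and 9.998 to 10.4 with vehicle, while the members' medians were higher with vehicle. The 5 macrophage markers summed to 51.7 to 56.9 in db/db and 62.5 to 86.1 with vehicle at labelled day 14, and to 77.0 to 79.2 and 64.7 to 66.0 at labelled day 7. Erythroid markers summed to 105 to 179 in db/db and 14.3 to 39.0 with vehicle at labelled day 7. Neutrophil markers had medians between labelled days of 0.52 in WT, -2.15 in db/db, 1.81 with estrogen and -0.48 with vehicle. The 7 fibroblast markers summed to 859 to 974 in WT, 725 to 739 in db/db, 704 to 824 with estrogen and 623 to 664 with vehicle at labelled day 7. Their sums at labelled day 14 were 676 to 1060, 641 to 709, 709 to 713 and 616 to 668. Macrophage and erythroid sums of other groups, and T cell, adipocyte, skeletal muscle and sebaceous sums, are not given here.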

How the data were processed

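RNA of whole mouse wounds was hybridised to 16 one-colour Agilent arrays, 2 for each of 8 groups. Per the file headers, the authors' scanner files (Agilent Feature Extraction 11.0.1.1) hold the processed signal as a background-subtracted intensity per spot, with no normalization between arrays. The deposited value table holds, per probe, the ratio of that signal to the array's 75th percentile, and served as an alternative. Spots of a probe were averaged, control spots were left out, and log2 signals were set to 0 at each array's 75th percentile. Of 39429 probes 27421 were named from RefSeq, giving 20828 genes. A test asked for a signal well above background on each array of 1 or both groups compared.

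All 8 groups were fitted together in limma 3.58.1 (lmFit and eBayes, R 4.3.3), with two-sided p-values and Benjamini-Hochberg adjustment over all probes tested. Called means an unadjusted p below 0.05 and a fold change above 2. There were 12 comparisons within a labelled day, 4 between labelled days and 4 interactions. The scripts were tested on simulated data. Other steps used Python 3.11.15.

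The members and lists were chosen with earlier results of these data known. All 49 members may be named. Values of every array are given for 13 of them whatever they do and for the 3 replication and 3 mitosis members of largest fold change in each comparison with called members. Genes outside the set are named from the fixed lists, up to 2 called genes of largest fold change per list and direction, of which examples are given. Alternatives changed the background correction, the normalization, the filter on dim probes, the probe chosen for a gene, the arrays in the fit, the slide or replicate block and the threshold, used the deposited ratios, or left out 1 array at a time.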

Additional observations from a re-analysis of the deposited data

How the results depend on the processing

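The counts of called members are small and move with the processing, while the medians of the lists moved by more than the spread between arrays only when an array was left out (29 medians moved so and 433 did not). Between db/db and WT at labelled day 14 the count of 1 became 0 with normexp, quantile normalization, slide as a fixed block or the filter asking for signal on all arrays of both groups. Between vehicle and db/db at labelled day 14 the count of 1 became 0 with normexp, that filter or the adjusted threshold and 2 with slide as a fixed block. Between vehicle and WT it became 1 at labelled day 7 with normexp or without a filter and 1 at labelled day 14 with quantile normalization. Between estrogen and WT it became 1 at labelled day 7 without a filter and 1 at labelled day 14 with the adjusted threshold. Between estrogen and vehicle at labelled day 7 it became 1 with quantile normalization or the mean of a gene's probes. Between labelled days the adjusted threshold gave 0 in WT and 2 in db/db, and slide as a fixed block gave 3 in db/db. The cause was not tested.

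Leaving out 1 array at a time, the counts between labelled days ran from 2 to 29 in WT, 0 to 17 in db/db, 1 to 20 with estrogen and 9 to 15 with vehicle. At labelled day 7 they ran from 0 to 3 for db/db against WT, 0 to 3 for estrogen and 0 to 1 for vehicle against db/db, 0 to 2 for estrogen against vehicle, 0 to 1 for estrogen and 0 to 8 for vehicle against WT. At labelled day 14 they ran from 0 to 2, 0 to 0, 1 to 10, 0 to 0, 0 to 1 and 0 to 1 in the same order, and for the interactions from 0 to 0. Asking for signal on all arrays of both groups gave 12 in WT and 9 with vehicle between labelled days. A group left with 1 array is assumed to vary like the others. Of single members named, 461 recomputed values kept their direction and side of the threshold, 72 kept the direction alone, and Aurkb between labelled days in WT turned to -0.14 with normexp.

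The replicate numbers did not pair the arrays, since arrays of the same number had correlations of their deviations between -0.45 and 0.39. With the replicate number as a block, the counts between labelled days stayed at 13, 5, 8 and 10. Crossed pairing, chosen after seeing the data for the 7 comparisons with correlations of -0.45 to -0.18, changed no count. With 2 arrays a group the number of arrays limits every value, and Ccne2, Aurkb and Cenpf are limited by signal over background.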
